A study of Mus musculus with 3 samples.

Results

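The SLC25 mitochondrial carriers were followed in brown adipocytes during the first hours of β-adrenergic stimulation. They were taken as every gene whose symbol starts with Slc25a and that had a probe set annotated with exactly 1 gene symbol on the Affymetrix mouse genome array, which gave 44 of 18194 such genes on the array. Each gene was represented by its brightest probe set over the 3 arrays, by mean signal, and was read if that probe set reached a signal of 100 on 1 or more arrays. Of the 44 genes, 25 were read, out of 6896 genes read in all, and 19 were below 100 on every array. The arrays were made from iBATs, an immortalized brown preadipocyte line derived from the stromal vascular cells of interscapular brown fat of C57BL/6 mice with SV40 large T antigen, and differentiated with insulin and indomethacin. All 3 arrays hold cells at day 8 of differentiation, and the groups were 0 h, 1 h and 2 h of isoproterenol (ISO), a pan-agonist of β-adrenergic receptors. Each time point has 1 array, so that no replicate error, test or p-value could be had, and the values describe these 3 RNA preparations of 1 cell line. Levels are MAS5 signals, which are linear intensities scaled so that the trimmed mean is the same on every array.

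The SLC25 proteins are small carriers, nearly all of the mitochondrial inner membrane, that move nucleotides, phosphate, carboxylates, amino acids, carnitine esters, vitamins, cofactors and metal ions between the cytosol and the mitochondrial matrix. Brown fat burns fatty acids in mitochondria whose proton gradient is dissipated as heat by Ucp1, which itself belongs to this protein family. The β-adrenergic receptors of brown adipocytes raise cyclic AMP and activate protein kinase A, and CREB family factors bind the cyclic AMP response element (CRE), whose full palindrome reads TGACGTCA. Slc25a25, singled out as the fast-induced member when the genes were chosen, encodes an ATP-Mg/phosphate carrier with calcium-binding EF-hands, which exchanges adenine nucleotides for phosphate and so sets the size of the matrix nucleotide pool.

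The promoters of the carriers are shown for 3 genes, because 2 of them were the member genes with a full CRE and the other, Slc25a33, was among the carriers with the highest ratios and held the shorter motif TGACG on both strands. Sequences are from RefSeq on build GRCm38.p6, run from 250 bases before to 50 bases after an annotated start, and are written 5′ to 3′ along the gene, with the CRE letters in capitals. All 3 genes lie on the minus strand, at chr2:32424017-32424316, chr9:97110992-97111291 and chr4:149774218-149774517 in the order printed.
Slc25a25: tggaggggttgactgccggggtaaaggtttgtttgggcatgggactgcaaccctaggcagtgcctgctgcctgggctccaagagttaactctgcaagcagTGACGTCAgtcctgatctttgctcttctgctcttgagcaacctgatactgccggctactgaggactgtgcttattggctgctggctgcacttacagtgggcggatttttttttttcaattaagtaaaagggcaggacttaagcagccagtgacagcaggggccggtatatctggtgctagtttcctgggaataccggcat
Slc25a36: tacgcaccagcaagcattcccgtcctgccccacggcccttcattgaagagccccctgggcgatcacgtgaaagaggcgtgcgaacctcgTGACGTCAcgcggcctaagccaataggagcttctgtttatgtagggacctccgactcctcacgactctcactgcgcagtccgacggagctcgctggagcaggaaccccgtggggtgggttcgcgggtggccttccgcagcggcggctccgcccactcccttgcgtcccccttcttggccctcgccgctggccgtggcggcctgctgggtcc
Slc25a33: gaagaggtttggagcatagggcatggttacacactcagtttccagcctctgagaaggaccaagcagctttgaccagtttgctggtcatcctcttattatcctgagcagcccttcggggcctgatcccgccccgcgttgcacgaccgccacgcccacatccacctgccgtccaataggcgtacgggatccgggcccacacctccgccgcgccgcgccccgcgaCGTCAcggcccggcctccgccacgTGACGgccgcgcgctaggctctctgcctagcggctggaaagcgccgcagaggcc
In Slc25a25 the palindrome TGACGTCA covers bases -150 to -143 from the start, and in Slc25a36 bases -161 to -154. RefSeq lists 3 starts for Slc25a25, and the promoters of the other two, at chr2:32451421-32451720 and chr2:32431102-32431401, hold no TGACGTCA. The arrays do not tell which start was used. In Slc25a33 the letters TGACG cover bases -4 to 1, and the same motif lies on the opposite strand, as CGTCA, at bases -28 to -24.

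A promoter was found in the RefSeq table for 34 of the 44 carrier genes, with 43 promoters, and for 21 of the 25 genes read. The genes read without one were Slc25a32, Slc25a44, Slc25a46 and Slc25a51. Slc25a32 and Slc25a51, which were also among the highest ratios at 2 h, were therefore not searched for any motif. TGACGTCA was present in 2 of these 43 promoters, and in 1.79% of all 32851 promoters of the same length. The shorter TGACG, searched on both strands and contained in every full CRE, was present in 13 of the 43 carrier promoters and in 20.8% of all promoters. Among genes read whose promoter has no full CRE, TGACG lay on both strands not only in Slc25a33 but also in Slc25a16, the carrier with the lowest ratio at 1 h (-0.41 on the log2 scale), and in Slc25a3, at -0.03 at 2 h. AAAGGTCA, the NBRE letters bound by NR4A receptors, was found for Slc25a34 only, a gene that was not read, and in 1.51% of all promoters. TCAAGGTCA, the ERRE letters bound by ERR receptors, was in none of the carrier promoters and in 0.423% of all promoters. A match of letters is a description of the sequence, and binding was not analysed here.

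Slc25a25 was the single carrier gene past the size used as a call, a ratio of 1.74-fold (0.8 on the log2 scale), and it was past it at both 1 h and 2 h. Its main probe set read 33.7, 146.1 and 136.5 at 0, 1 and 2 h. The 1 h and 2 h signals were 4.34-fold and 4.05-fold that of 0 h, or 2.12 and 2.02 on the log2 scale, and the 2 ISO arrays differed little from each other. By log2 ratio it was at rank 28 of the 6896 genes at 1 h and at rank 43 at 2 h. In bulk RNA of this kind, a change in the number of cells that hold a transcript and a change in the RNA per cell cannot be told apart. For genes of like signal, the robust spread of log2 ratios between arrays (the scaled median absolute deviation, in 20 bins of mean signal) was 0.20 at 1 h and 0.27 at 2 h. This spread holds real changes as well as noise, and it is the only yardstick these data give. The other probe sets of the gene, one with 2.1, 10.4 and 10.5 and the other with 11.1, 11.8 and 1.7 at 0, 1 and 2 h, were far under the floor of 100. The 0 h signal of the main probe set was itself below 100, and Slc25a25 entered the genes read only through the 1 h and 2 h arrays, so that it had to differ from 0 h. With every signal below 100 set to 100, its log2 ratios were 0.55 at 1 h and 0.45 at 2 h and no longer past 0.8.

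Among the 25 carriers read, 1 was past the size upwards at 1 h, against 109 of all 6896 genes (1.58%), and 0 were past it downwards, against 0.218% of all genes. At 2 h, 1 carrier was past the size upwards, against 188 genes (2.73%), and 0 downwards, against 56 genes (0.812%). With 25 genes, counts of 0 or 1 lie near these background shares. Their medians on the log2 scale were 0.08 for 1 h and -0.0016 for 2 h, beside -0.02 and -0.07 for all genes read. Within 0.5 of 0 h on the log2 scale were 23 of 25 carriers (92.0%) at 1 h, against 95.8% of all genes read, and 21 of 25 (84.0%) at 2 h, against 89.4%, so that the carriers were near the background here too. Their ratios ran between -0.41 and 2.12 at 1 h and between -0.25 and 2.02 at 2 h, and 9 carriers were within 1 spread of genes of like signal at both times. Beyond 3 spreads at 1 h were 2 of the 25 carriers, Slc25a25 and Slc25a33, against 3.61% of all genes read. At 2 h there were 3, Slc25a25, Slc25a33 and Slc25a51, against 4.19%. Since Slc25a25 was read only through the 1 h and 2 h arrays, its distance from 0 h was built in, and nothing is read from these shares.

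**Figure D1:**
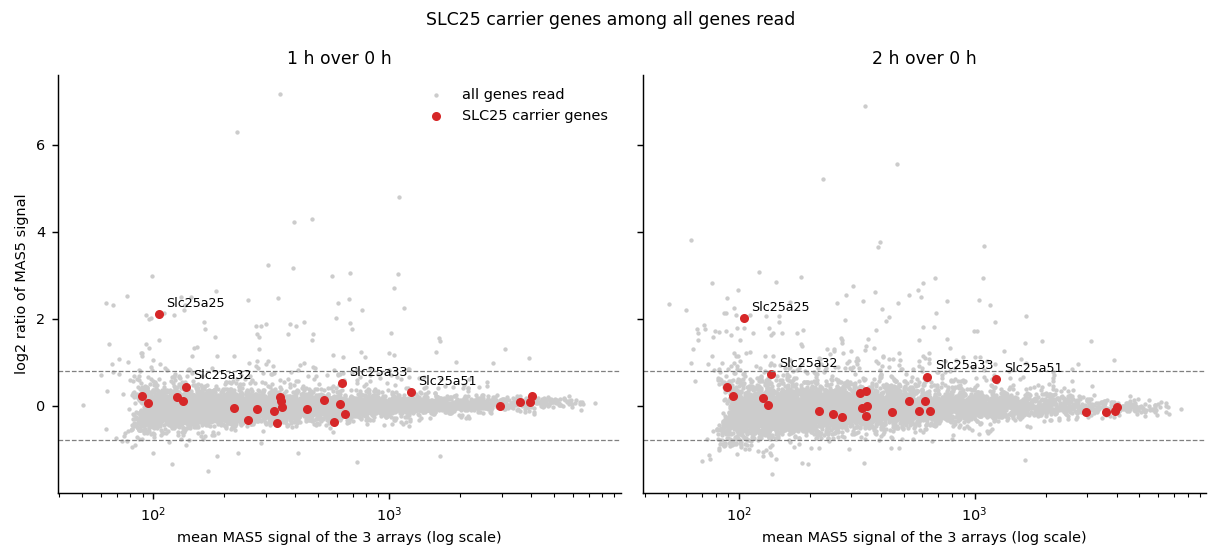
Log2 ratio of the MAS5 signal at 1 h over 0 h (left) and 2 h over 0 h (right) against the mean signal of the 3 arrays (log axis) for all 6896 genes read (grey) and the 25 SLC25 carrier genes (red), with dashed lines at a log2 ratio of 0.8 in either direction. Slc25a25, at 2.12 and 2.02, is the single red point beyond the lines.

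After Slc25a25, the highest ratios at 2 h belonged to 3 carriers of nucleotides and cofactors, Slc25a32, Slc25a33 and Slc25a51. Slc25a51, the carrier that brings NAD into mitochondria, read 985.3, 1221.2 and 1509.6 at 0, 1 and 2 h on its brightest probe set, log2 ratios of 0.31 and 0.62. Its other probe sets showed the same order of the arrays with larger ratios. The brighter of these read 325.0, 474.6 and 696.5 (2 h over 0 h, 1.10 on the log2 scale) and the dimmer 60.5, 145.7 and 213.7 (1.82). The gene was therefore below the size on the probe set that stood for it and past it at 2 h on both others, and the size of its ratio is not settled by these arrays. Slc25a32, a carrier of folate and FAD, read 103.1, 139.7 and 170.6 at 0, 1 and 2 h, log2 ratios of 0.44 and 0.73. A dimmer probe set of it read 49.8, 69.6 and 106.8, which is 1.10 on the log2 scale at 2 h, and the remaining one stayed between 11.3 and 12.7. Slc25a33, a carrier of pyrimidine nucleotides with 1 probe set, read 470.9, 675.5 and 747.9, log2 ratios of 0.52 and 0.67. At 1 h and 2 h these were 4.09 and 3.45 times the spread of genes of like signal.

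**Figure D2:**
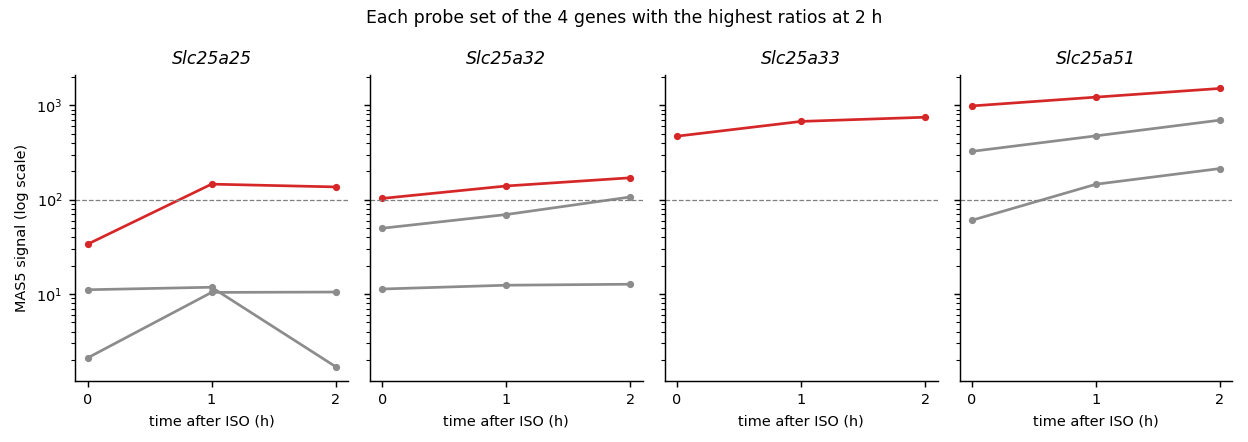
MAS5 signal (log axis) of every probe set of Slc25a25, Slc25a32, Slc25a33 and Slc25a51 at 0, 1 and 2 h of ISO, 1 array per time point, with the probe set that stands for the gene in red, the others in grey and the floor of 100 dashed. All 3 probe sets of Slc25a51 and the 2 of Slc25a32 that reach the floor have their lowest signal at 0 h and their highest at 2 h.

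The other carriers of nucleotides, cofactors and vitamins had smaller ratios at 2 h, while at 1 h Slc25a16 was as far from 0 h as some of these 3, in the other direction. Of 8 genes of this group on the array, 7 were read, 5 of them above 0 h at both times and 2, Slc25a16 and Slc25a17, at or below it, and the medians on the log2 scale were 0.21 for 1 h and 0.44 for 2 h. Both medians are the values of Slc25a42, which passed the floor only on the array where it was highest, and without it the medians of the remaining 6 genes were 0.22 and 0.37. Slc25a42, which carries coenzyme A, read 76.3, 88.4 and 103.5 at 0, 1 and 2 h and reached the floor on the 2 h array only. Slc25a36, the other pyrimidine nucleotide carrier and the other gene with a full CRE in its promoter, read 497.3, 545.0 and 539.8, log2 ratios of 0.13 and 0.12. Slc25a16, which has been linked to mitochondrial coenzyme A, read 369.7, 278.4 and 355.2, so that its signal was lowest at 1 h, with a log2 ratio of -0.41, and near that of 0 h again at 2 h. Slc25a17, a carrier of peroxisomes, read 353.7, 348.2 and 353.3, and its side of 0 h changed with the scaling of the arrays.

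Among the calcium-regulated ATP-Mg/phosphate carriers, 2 of 4 were read, Slc25a25 and Slc25a24. Slc25a25 was singled out beforehand and was read only through the 1 h and 2 h arrays. Its distance from its relatives was therefore built in, and nothing is read from it. With signals below 100 set to 100, its log2 ratios were 0.55 at 1 h and 0.45 at 2 h, beside -0.11 and 0.29 for Slc25a24. Slc25a24 read 310.7, 287.2 and 379.5 at 0, 1 and 2 h, log2 ratios of -0.11 and 0.29 to 0 h. Its log2 ratio of 2 h over 1 h, 0.40, was the highest of the 25 carriers. Slc25a23 read 58.5, 56.5 and 55.1 and Slc25a41 read 0.5, 5.2 and 0.5, so that neither was read.

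The carriers that serve ATP synthesis kept high signals throughout. Slc25a3, the phosphate carrier, read 3842.6, 4489.4 and 3775.0 at 0, 1 and 2 h, log2 ratios of 0.22 and -0.03. Slc25a4, the ADP/ATP carrier ANT1, read 3625.0, 3868.8 and 3299.8, log2 ratios of 0.09 and -0.14. Slc25a5, the ADP/ATP carrier ANT2, read 3978.3, 4215.1 and 3654.2, log2 ratios of 0.08 and -0.12. On these probe sets all 3 were above 0 h at 1 h and below it at 2 h, by 0.22 or less on the log2 scale. The ADP/ATP carriers have no settled direction, since 4 of the 8 probe sets of Slc25a5 that reached the floor were below 0 h and 4 above it at either time (log2 ratios of -0.22 to 0.30 at 2 h), quantile normalization turned the 1 h ratio of Slc25a5 to -0.01, and 2 of the 3 probe sets of Slc25a4 were below 0 h and 1 above it at 2 h. Slc25a31, the ADP/ATP carrier ANT4 of germ cells, stayed at 3.0 or below.

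Carriers of the malate-aspartate shuttle and of glutamate were read for 3 of 5 genes, with no ratio past the size. Slc25a11, the oxoglutarate carrier of the shuttle, read 650.2, 499.4 and 594.0 at 0, 1 and 2 h, log2 ratios of -0.38 and -0.13. Its 1 h ratio was 2.87 times the spread of genes of like signal, and the signal at 2 h stood between those of the other arrays. Slc25a12, an aspartate/glutamate carrier, read 129.4, 138.7 and 131.5, and Slc25a22, a glutamate carrier, read 115.3, 133.2 and 130.9. Both were within 0.21 of 0 h on the log2 scale. Slc25a13, the other aspartate/glutamate carrier, had at most 24.4, and Slc25a18 at most 9.4.

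The 2 carriers on the array that were grouped for citrate and dicarboxylates stood on opposite sides of 0 h at 2 h. Slc25a1, which exports citrate for cytosolic lipid synthesis, read 303.7, 348.9 and 385.1 at 0, 1 and 2 h, log2 ratios of 0.20 and 0.34. Slc25a10, the dicarboxylate carrier, read 356.0, 385.6 and 302.5, log2 ratios of 0.12 and -0.23, and its log2 ratio of 2 h over 1 h, -0.35, was the lowest of the 25 carriers. Its other probe set read 101.4, 88.7 and 71.4, also lowest at 2 h. At 2 h the ratio of Slc25a1 was 1.59 times the spread of genes of like signal.

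Of 9 carriers of carnitine, ornithine and amino acids, 3 were read. Slc25a20, the carnitine/acylcarnitine carrier through which long-chain fatty acids reach β-oxidation, read 597.2, 615.5 and 640.9 at 0, 1 and 2 h, log2 ratios of 0.04 and 0.10. Slc25a44, a carrier of branched-chain amino acids, read 228.4, 219.1 and 209.3, log2 ratios of -0.06 and -0.13. Slc25a15, an ornithine carrier, read 282.4, 223.9 and 247.5, log2 ratios of -0.33 and -0.19. The transporters of the 2 fuels in this group, fatty acids and branched-chain amino acids, were thus within 0.13 of their 0 h signal on the log2 scale.

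Of 4 iron and glutathione carriers on the array 3 were read, all 3 slightly below their 0 h signal at 2 h. At 1 h they were below it as deposited and above it (by 0.02 to 0.09 on the log2 scale) with the arrays scaled to the same median. Slc25a39, a glutathione carrier, read 3058.3, 3038.7 and 2766.4 at 0, 1 and 2 h, and its log2 ratio at 2 h of -0.14 was not shared by its 3 other probe sets above the floor, which were all at or above 0 h (up to 0.33). Slc25a40, its close relative, read 295.2, 279.7 and 248.1, and its log2 ratio of -0.25 was the lowest of the carriers at 2 h. Slc25a28, the iron carrier mitoferrin-2, read 468.1, 444.9 and 426.6, log2 ratios of -0.07 and -0.13. Slc25a37, mitoferrin-1, was not read, with signals of 46.4, 67.6 and 52.7.

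Of the uncoupling-protein-like carriers only Slc25a30 was read, at 88.5, 93.1 and 103.2, and it reached the floor on the 2 h array only. Slc25a46, an outer-membrane member of the family that acts in mitochondrial dynamics, read 696.7, 606.8 and 643.5 at 0, 1 and 2 h, log2 ratios of -0.20 and -0.11. The 19 genes not read had highest signals between 3.0 and 75.7, and for 12 of them the highest signal was below 30. Slc25a30 and Slc25a42, at most 103.2 and 103.5, were the genes just inside the floor of 100, and Slc25a14 and Slc25a37, at most 75.7 and 67.6, those just outside it.

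**Figure D3:**
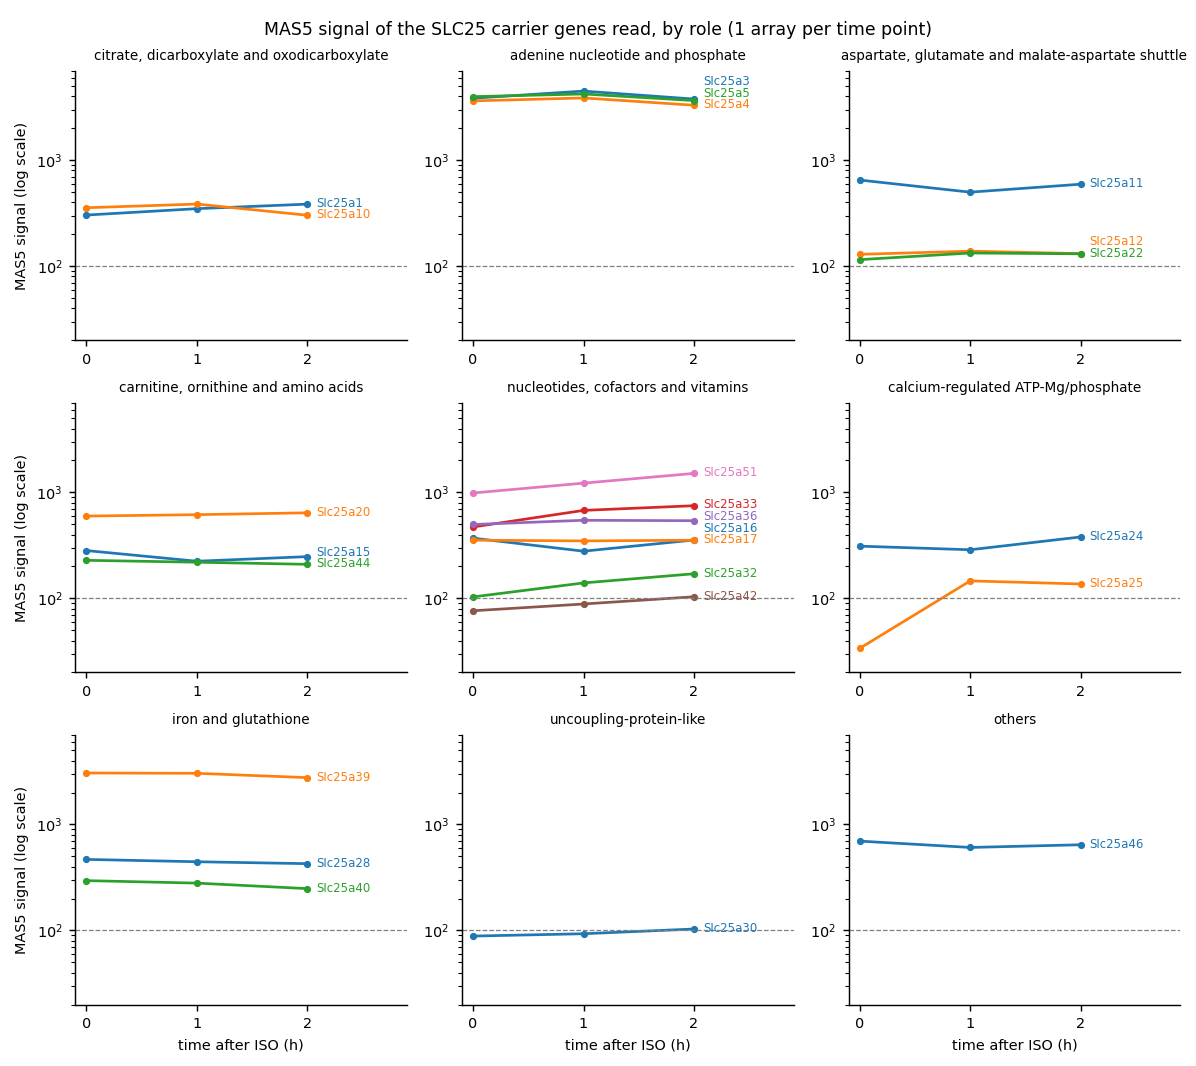
MAS5 signal (log axis) of the 25 SLC25 carrier genes read at 0, 1 and 2 h of ISO, 1 array per time point, in 9 panels by role, with the floor of 100 dashed. Each line is 1 gene and is to be read along time, since levels of different probe sets are not comparable. Slc25a25 stands at 33.7 at 0 h and above 100 at 1 h and 2 h.

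Over the second hour no carrier was past the size. Of the 25 carriers, 0 were higher at 2 h than at 1 h by that size, against 0.667% of all genes, and 0 were lower, against 0.319%. The log2 ratios of 2 h over 1 h ran between -0.35 and 0.40, with a median of 0.02 beside -0.04 for all genes. By the order of the signals, 7 of the 25 carriers were higher in both hours, namely Slc25a1, Slc25a20, Slc25a30, Slc25a32, Slc25a33, Slc25a42 and Slc25a51, against 17.9% of all genes read. Another 8, Slc25a25 among them, were higher at 1 h than at 0 h and lower again at 2 h than at 1 h, against 26.3% of all genes. A further 6 were lower at 1 h and higher at 2 h than at 1 h, against 22.5%, and 4, Slc25a28, Slc25a39, Slc25a40 and Slc25a44, were lower in both hours, against 33.0%. Of the 7 carriers higher in both hours, Slc25a30 and Slc25a42 were read through the 2 h array alone, so that the floor itself fixed their highest signal at 2 h, and nothing is read from this share. These orders take no account of size. With the arrays scaled to the same median, 5 of the carriers (Slc25a17, Slc25a28, Slc25a39, Slc25a40 and Slc25a44) changed sides of 0 h at 1 h, all of them within 0.08 of it as deposited.

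**Figure D4:**
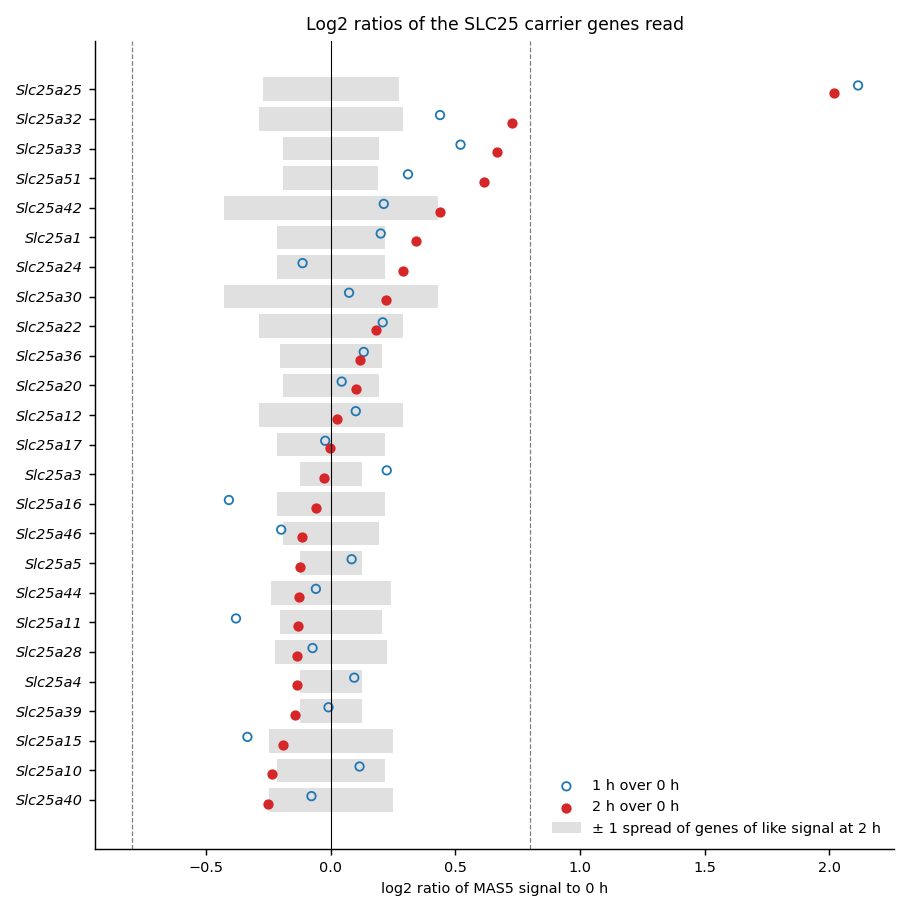
Log2 ratio of the MAS5 signal to 0 h at 1 h (open blue) and 2 h (filled red) for the 25 SLC25 carrier genes read, in the order of the 2 h ratio, with grey bars for 1 robust spread of genes of like signal at 2 h to either side and dashed lines at 0.8 in either direction. Below Slc25a25, the 2 h ratios of Slc25a32, Slc25a33 and Slc25a51 (0.73, 0.67 and 0.62) stand well to the right of their bars, and those of Slc25a42, Slc25a1 and Slc25a24 (0.44, 0.34 and 0.29) nearer to the bars on the same side.

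SLC25 proteins with other symbols and genes that work with the carriers were set beside them. Ucp1, the uncoupling protein, read 1485.7, 3673.2 and 4166.1 at 0, 1 and 2 h, log2 ratios of 1.31 and 1.49, past the size at both times. Mtch1 and Mtch2, family members of the outer membrane, had log2 ratios of -0.18 and -0.02 at 2 h, and Ucp3 was not read. Of 11 genes read for the import of carriers into the inner membrane, 0 were past the size, with medians on the log2 scale of 0.04 for 1 h and -0.04 for 2 h. The highest at 2 h was Tomm70a, the import receptor for carrier proteins, at 0.26, and the lowest Timm22, the channel that inserts them, at -0.20. Other mitochondrial channels and transporters were read for 11 genes, with 0 past the size and medians of -0.02 and -0.12. Sfxn2, a sideroflexin, was the lowest of these, with signals of 179.0, 124.6 and 112.4 and log2 ratios of -0.52 and -0.67. Of 11 enzymes that work with the carrier shuttles, 0 were past the size, and their ratios at 2 h ran between -0.27 for Cs, citrate synthase, and 0.26 for Acly, which splits exported citrate. Over all genes read, 1.58% were past the size upwards and 0.218% downwards at 1 h, and 2.73% and 0.812% at 2 h. With 11 genes in each of these lists, counts of 0 lie near those shares, and nothing is read from them.

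**Figure D5:**
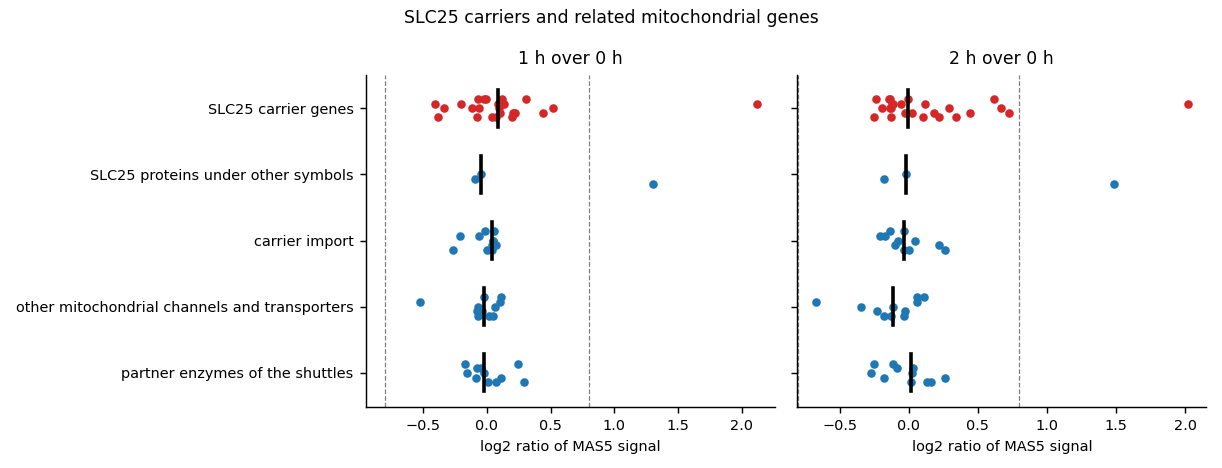
Log2 ratio of the MAS5 signal at 1 h over 0 h (left) and 2 h over 0 h (right) for the 25 SLC25 carrier genes read (red) and 4 lists of related genes (blue), each point 1 gene, with black bars for medians and dashed lines at 0.8 in either direction. The points beyond the lines are Slc25a25 and, among the proteins with other symbols, Ucp1.

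The identity of the cells was checked with marker genes. The list for brown adipocytes was Fabp4, Adipoq, Plin1, Pparg, Cidea, Ucp1 and Cox8b, of which Plin1 had no probe set of 1 gene symbol. The other 6 were read, with summed signals of 16774.7, 19972.9 and 19230.0 at 0, 1 and 2 h. Fabp4 and Adipoq, at 7490.0 and 4986.4 at 0 h, gave most of this sum, which is therefore read for adipocytes in general. Of 5 markers of preadipocytes and fibroblasts, 4 were read too, with sums of 5133.4, 5551.4 and 5019.0. Without Ucp1 the brown adipocyte sums were 15289.0, 16299.7 and 15063.9, and at 2 h the log2 ratios of the remaining markers ran between -0.44 for Cox8b and 0.66 for Pparg. None of the 5 macrophage, 4 endothelial and 5 muscle markers reached 100 on any array. The macrophage sum was 108.4, 107.3 and 187.9 at 0, 1 and 2 h. Most of it came from Cd68, at 58.9, 54.5 and 81.2, and Cd14, at 34.6, 41.8 and 93.2, both highest at 2 h. Ptprc, the pan-leukocyte marker, had at most 0.9, Adgre1 at most 9.8 and Itgam at most 5.6. The part of such cells in the carrier signals was not tested. The arrays had 10748, 10599 and 10476 probe sets at 100 or more and median signals of 13.6, 12.7 and 13.4.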

How the data were processed

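The authors extracted total RNA of iBATs at day 8 of differentiation, after 0, 1 and 2 h of ISO. Labelled cRNA was hybridized to Affymetrix mouse genome arrays, 1 per time point. The deposited values are linear MAS5 signal intensities, 1 per probe set and array, from the GeneChip software of the array maker. The table still holds absent and low transcripts, which the methods exclude. Because each array is scaled to the same trimmed mean (2% left out at each end), a ratio is relative to the whole array. Of 45101 probe sets, 34958 had 1 gene symbol in the platform annotation, 932 had several (not used) and 9211 were unnamed here. Symbols were checked by gene identifier against RefSeq (GRCm38.p6): 34754 matched and 0 changed. The 12 signals listed as 0 were given 0.1 before log2. Ratios, spreads and motif searches used pandas 2.3.3, numpy 2.4.6 and Python 3.11.15, and plots matplotlib 3.10.9. The ratios and spreads were checked on simulated data, and the motif searches were not. The size of 0.8 on the log2 scale is the one the study used at 1 h. No test was possible with 1 array per time point, whose number limits the precision. The members and gene lists were chosen with earlier results of these data known. Named in full were members past the size, the 8 with the highest mean signal, the relatives of Slc25a25, and in each role group the members with the largest ratio at 2 h and the highest signal. Alternatives (10 listed, and 1 chosen after seeing the data) changed the floor, low values, scaling, the probe set of a gene and the size. A planned comparison of the carrier proteins by sequence was not run.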

Additional observations from a re-analysis of the deposited data

How the results depend on the processing

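No paired analysis was possible because each time point has 1 array, and no array could be left out. With a floor of 100 on all 3 arrays, or of 200 on 1 or more, Slc25a25 was no longer read and 0 carriers were past the size at 1 h and 0 at 2 h. The floor of 200 left 19 carriers read, with a median log2 ratio of -0.11 at 2 h. The genes it left out, Slc25a12, Slc25a22, Slc25a25, Slc25a30, Slc25a32 and Slc25a42, were all above 0 h at 2 h. For Slc25a25, Slc25a30 and Slc25a42 this was fixed by the floor of 100, which they reached on ISO arrays only. With signals below 100 set to 100, again 0 and 0 carriers were past the size, and Slc25a25 had log2 ratios of 0.55 at 1 h and 0.45 at 2 h. Without a floor all 44 carriers were read, with 3 higher and 6 lower at 1 h, 2 higher and 3 lower at 2 h, and 4 higher and 3 lower at 2 h over 1 h, where the added genes have signals under 100. With the median over the probe sets of a gene, 3 carriers were past the size at 2 h, namely Slc25a25, Slc25a32 (0.91) and Slc25a51 (1.10). Where any probe set of a gene could pass, chosen after seeing the data, 2 were higher at 1 h and 3 at 2 h. The share of all genes past the size was not counted under the alternatives. Their counts of carriers therefore have no background beside them, and nothing is read from them about the carriers as a family. Leaving out probe sets with suffixes for sequence shared between transcripts, of the same gene (_a) or of several (_s, _x), left 20 carriers read. Their median was 0.14 at 2 h. Slc25a3, Slc25a4, Slc25a28 and Slc25a36, whose main probe sets carry _a, and Slc25a39, whose main probe set carries _x, were no longer read. The log2 ratios of Slc25a5, whose main probe set carries _x too, turned to -0.18 at 1 h and 0.20 at 2 h. With 32 added to each signal, with median scaling, with quantile normalization and with a 2-fold size, Slc25a25 was the 1 carrier past the size at 1 h and at 2 h. Its log2 ratio ran between 0.55 and 2.21 at 1 h and between 0.45 and 2.10 at 2 h over the alternatives in which it was read. The 0 h signal of Slc25a25, 33.7, was under the floor, and dim signals limit the precision: the spread of log2 ratios at 1 h was 0.37 for the dimmest genes read and 0.09 for the brightest. The causes of the other differences were not tested.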

Other observations

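Probe sets of 1 carrier gene did not always share a direction. For Slc25a5, the 4 probe sets with the higher signals were below 0 h at 2 h, for example 3508.4, 3549.7 and 3012.6 at 0, 1 and 2 h, and the 4 with the lower signals were above it, for example 528.0, 419.3 and 647.5. At 1 h the same 4 with higher signals were above 0 h and the same 4 with lower signals below it. For Slc25a39, a dimmer probe set read 370.1, 322.9 and 464.2, a log2 ratio of 0.33 at 2 h, beside -0.14 for the probe set that stood for the gene. For Slc25a4, the dimmest of the 3 probe sets above the floor read 2629.7, 2547.4 and 2878.3, a log2 ratio of 0.13 at 2 h beside -0.14. The cause of these splits was not tested.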
